A study of Mus musculus with 4 samples.

Results

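Lumbar spinal cord RNA of G93A mice given spermidine (SD) was compared with that of wild type (WT) mice given SD, to see which genes differed between the genotypes when both had received the polyamine. The members are the genes whose mean over the 4 libraries of the series reached 1, 12987 of the 18674 gene names in the deposited table, and a gene name with several transcript rows was taken as the mean of its rows. The 2 SD libraries form the SD pair (G93A + SD over WT + SD), and the other 2 libraries form the vehicle pair (G93A vehicle over WT vehicle), which shares no library with it and was used as a second look at the genotype difference. G93A mice carry a human mutant SOD1 transgene, of the H1 high-expresser strain bred with B6/SJLF1 females, and the WT mice carry none. Both genotypes were male in the treatment studies, and the methods place the sequenced mice at 100 days of age, with SD or PBS given over the last 30 days, while the sample labels enter the treatment of the vehicle mice as none. The administration section gives 5 mg/kg SD by intraperitoneal injection 4 times per week, while another section gives 5 times per week, and sections also differ on the start of dosing and on PBS or saline as vehicle. Each condition is 1 library, the number of animals in it is not given in the sources used here, and no difference below therefore has a replicate check or a p-value.

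The values were read as RPKM, a unit that divides reads by transcript length and library depth, so levels are stated per length. Sums of RPKM lay between 376852 and 393328 per library, and the depth, estimated from the smallest steps of the values, between 36800000 and 38600000 read pairs. The tested genes had a median of 1001 estimated read pairs over the libraries. The tissue label was checked on markers: all 10 lumbar Hox genes were measured above the filter, whereas 0 of 11 lymphocyte markers and 0 of 7 skeletal muscle markers passed it. Of 7 Schwann cell markers only Pmp22 and Cdh19 passed, both of which glia of the cord also express. The Sod1 of the table is the mouse gene, at 29.0, 31.1, 31.9 and 29.3 RPKM in WT vehicle and WT + SD and then in G93A vehicle and G93A + SD, so the transgene label was not checked by it. Further values of the 4 libraries are given in this same order. At the edge of the filter, BC049715, Tnfrsf13c and Serpina3g lay just inside with means of 1.0016, 1.0023 and 1.0033 RPKM, and Pkp2, Pcsk5 and Elf5 just outside with 0.9995, 0.9992 and 0.9991.

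In mutant SOD1 mice, motor neurons of the cord degenerate over months while microglia and astrocytes become reactive. Microglia then switch from a homeostatic program of surface receptors to a phagocytic one with lysosomal proteases and lipid handling, known as the disease-associated state, and astrocytes build up intermediate filaments and secreted proteins. Spermidine is a natural polyamine, and the study gave it because polyamines inhibit the histone demethylase LSD1, encoded by Kdm1a. In bulk tissue, fewer cells of a type and less RNA per cell cannot be told apart.

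Under SD, most genes on the microglial, immune and reactive astrocyte lists were higher in G93A, and most on the motor neuron, neurofilament, channel and synaptic vesicle lists were lower. A gene was called where the log2 ratio, computed after adding 0.1 RPKM to each value, passed 1.5-fold, which is 0.58 on the log2 scale. G93A + SD was higher than WT + SD for 2055 genes (15.8% of the 12987) and lower for 1020 genes (7.85%). Counts on the gene lists below are to be read beside these shares. The higher genes had a median level of 5.42 RPKM and the lower genes of 9.57 RPKM, against 8.59 RPKM over all genes. Large differences lay on the higher side, with 406 genes at least 4-fold higher and 7 at least 4-fold lower, and 67 genes at least 16-fold higher against 2 lower. Because the filter takes the mean of all 4 libraries, 349 genes under 1 RPKM in both WT libraries passed it through their G93A values, and 322 of these were higher. Among the other 12638 genes 1733 were higher (13.7%). The median log2 ratio over all genes was 0.047 in the SD pair and 0.05 in the vehicle pair.

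The vehicle pair showed much of the same picture from separate libraries. It had 1696 genes higher (13.1%) and 563 lower (4.34%) in G93A. Of the genes higher in the SD pair 74.1% were also higher in the vehicle pair, and of those higher in the vehicle pair 89.7% were higher in the SD pair. For lower genes these shares were 41.9% and 75.8%. The calls shared by both pairs numbered 1522 higher genes (11.7%) and 427 lower genes (3.29%). A stricter count, of genes for which both G93A libraries lay at least 1.5-fold beyond both WT libraries, gave 1388 above (10.7%) and 339 below (2.61%). Opposite calls were few, 6 genes higher in the SD pair and lower in the vehicle pair and 2 the other way. Across genes, which are not independent replicates, the 2 log2 ratios had a Pearson r of 0.92 and a Spearman rho of 0.87. These figures keep the 349 genes that were under 1 RPKM in both WT libraries. Agreement on the higher side is therefore partly set by the filter. As a measure of how much 2 libraries of 1 genotype differ here, WT + SD and WT vehicle differed by at least 1.5-fold for 246 genes (1.89%). The WT libraries also differ in treatment, and this count does not measure the spread of the G93A libraries.

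Differences were wider in the SD pair than in the vehicle pair on both sides. Among the genes higher in both pairs the SD pair had the larger ratio for 1206 (79.2%), with medians of 1.30 against 1.08 on the log2 scale. Among the genes lower in both, the SD pair lay further below 0 for 342 (80.1%), with medians of -0.91 against -0.70. Of the 533 genes called higher in the SD pair alone, 498 had a vehicle ratio above 0, and of the 593 called lower in the SD pair alone, 570 had a vehicle ratio below 0. With 1 library per condition, the larger spread cannot be told apart from a difference between these animals or libraries.

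**Figure D1:**
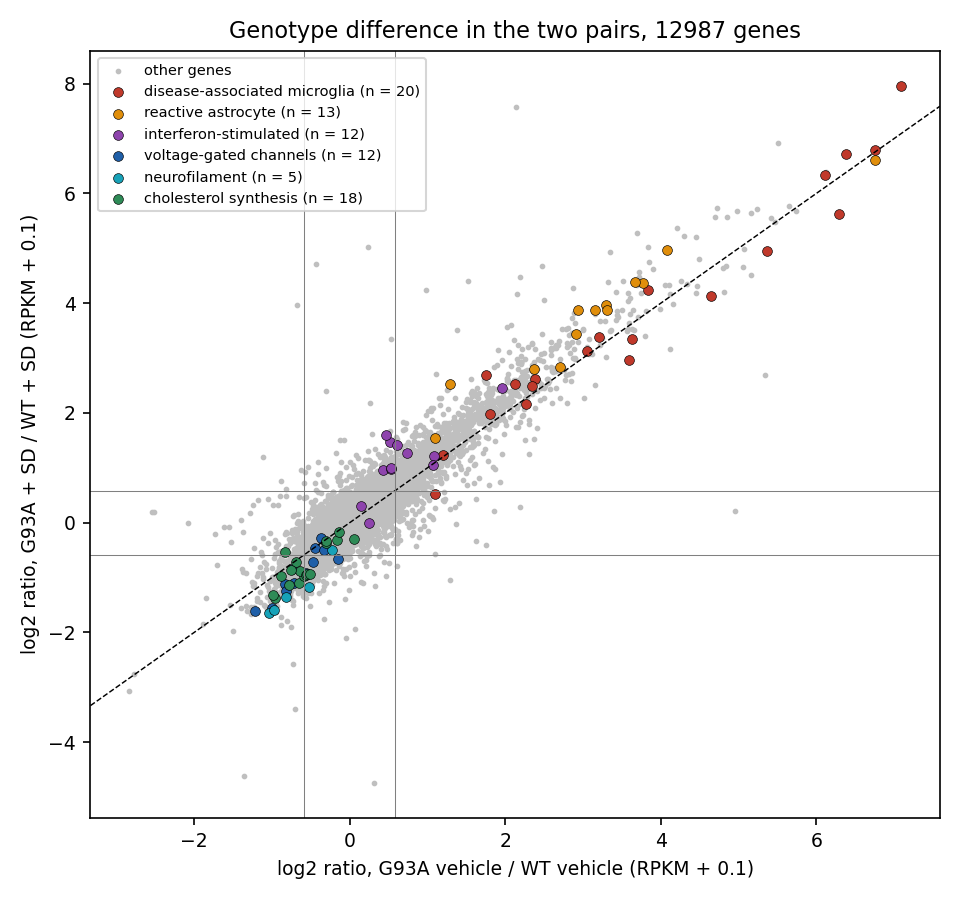
Log2 ratio of each of 12987 genes in the vehicle pair (horizontal) and in the SD pair (vertical), each after adding 0.1 RPKM, with genes of 6 lists coloured, thin lines at 1.5-fold and a dashed line of equal ratios. Disease-associated microglia and reactive astrocyte genes lie at the upper right, channel, neurofilament and cholesterol synthesis genes at the lower left, and most interferon-stimulated genes above the dashed line.

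The 12 largest rises are given for genes averaging 5 RPKM or more. Of these 12, Ftl2, Lyz2 and Nupr1 had a WT library above 1 RPKM, and the others passed the filter through their G93A values, so that their order depends on the added 0.1 RPKM. With 1 RPKM added Lyz2 (6.53) was above Cst7 (5.68), and Serpina3n (4.92) and C3 (4.38) were above Itgax (3.92), Lilrb4 (3.83), Cybb (3.63) and Gm11428 (3.43). Cst7, which encodes the lysosomal protease inhibitor cystatin F (GRCm38.p6, chr2:150570415-150578944), had 0.273, 0.127, 50.7 and 56.7 RPKM, a log2 ratio of 7.96 in the SD pair and 7.09 in the vehicle pair. Both G93A libraries lay far above both WT libraries, which were near 0. Lyz2, the lysozyme of myeloid cells, had 4.64, 4.17, 509.7 and 475 RPKM, and 13.5% of its 53-base windows also occur in Lyz1. Clec7a, the receptor for fungal glucans, had 0.325, 0.191, 35.3 and 30.6 RPKM, and Itgax, the integrin CD11c, had 0.0925, 0.0923, 13.2 and 15.5 RPKM. Both were called in each pair with little difference between the pairs.

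Timp1, an inhibitor of matrix metalloproteinases, had 0.185, 0.304, 30.6 and 39.3 RPKM (log2 ratio 6.61 under SD). Cybb, the catalytic subunit of the phagocyte NADPH oxidase, had 0.128, 0.140, 11.3 and 13.1 RPKM (5.78), and Tgm1, a transglutaminase, had 0.0617, 0.0426, 11.2 and 11.9 RPKM (6.39). Nupr1, a stress-induced nuclear protein, had 1.40, 1.15, 47.3 and 63.8 RPKM (5.68). In all 4 genes the G93A libraries stood close to each other and did not overlap with the WT libraries. Wisp2, a secreted matricellular protein, had 0.143, 0.0662, 10.9 and 20 RPKM, so that its log2 ratio was 6.92 under SD and 5.50 under vehicle. The inhibitory receptor Lilrb4 (5.68) and the predicted gene Gm11428 (5.71) complete the leading 12 with Ftl2, whose value rests on 1 library and is given with the genes that differ between the pairs. All windows of Lilrb4 occur in a second annotated transcript, and the reads of the locus could have been split between them.

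Homeostatic microglia genes split into those that were higher and those that were not. Of the 12 genes 10 were called higher and 0 lower under SD, with a median log2 ratio of 1.45 against 0.97 under vehicle. Csf1r, the receptor that microglia need for survival, had 22.4, 20.3, 74.9 and 74.9 RPKM (log2 ratio 1.88), and the chemokine receptor Cx3cr1 had 14.1, 12.6, 41.7 and 47.9 RPKM (1.92). Fcrls, an Fc receptor-like scavenger protein, had the largest ratio of the list, from 2.07 to 45.4 RPKM (4.39), and was at 1.61 and 16.9 RPKM in the vehicle pair. The purinergic receptor P2ry12, at 15.9, 16.1, 16.7 and 19.6 RPKM, and the transcription factor Sall1, at 10.9, 10.9, 12.2 and 11.2 RPKM, were not called in either pair.

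Disease-associated microglia genes were higher almost throughout. Of the 20 genes, 19 were called higher and 0 lower under SD, with a median log2 ratio of 3.24, while under vehicle all 20 were called higher with a median of 3.40. The filter let 5 of them in through their G93A values, and 14 of the other 15 were called higher under SD. Apoe, the main lipid carrier of the nervous system, had 586, 461, 1975 and 2975 RPKM, a log2 ratio of 2.69 against 1.75 under vehicle. Trem2, a lipid-sensing receptor, had 5.31, 5.50, 65.1 and 43.9 RPKM, so that its ratio of 2.97 was below the 3.59 of the vehicle pair, and its adaptor Tyrobp had 9.67, 7.76, 139 and 149 RPKM (4.24). The fatty acid binding protein Fabp5 was the exception, at 27.4, 30.1, 58.8 and 43.2 RPKM and a log2 ratio of 0.52. Of the 20 genes, 13 had the larger ratio in the SD pair and 7 the smaller, although the list median was lower there.

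Lysosomal genes were higher in 20 of 22 cases under SD and in 17 of 22 under vehicle, with medians of 1.91 and 1.78 and 0 called lower. The filter let 1 of them, Atp6v0d2, in through its G93A values, and 19 of the other 21 were called higher under SD. The protease gene Ctsd had 186, 174, 1545 and 1516 RPKM (log2 ratio 3.13), and Ctss, a cathepsin of phagocytes, had 50.4, 44.3, 320.0 and 421 RPKM (3.25). Cd68, a lysosomal membrane protein of macrophages, had 3.75, 4.06, 85.2 and 82.6 RPKM (4.31). The genes outside the call were Npc1, the lysosomal cholesterol exporter, at -0.27, and Atp6v1a, a subunit of the proton pump that neurons express strongly, at -0.28. For 36.5% of the windows of Ctsd a second annotated transcript holds the same bases.

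Promoters of 15 lysosomal genes were found in the RefSeq table (GRCm38.p6, 250 bases before to 50 after the start). The 8 letters GTCACGTG, the core of the site through which TFEB is known to act, were searched on both strands, and 4 of the 15 promoters (26.7%) held them, against 4.80% of 9077 tested genes and 2.25% of all 32851 promoters of that length. The stretches of Ctsd and Naglu are shown because these 2 had the larger ratios among the 4, with the match in capitals, 90 and 67 bases before the start. They lie at chr7:142387903-142387940 on the minus strand and at chr11:101070004-101070041 on the plus strand.
Ctsd: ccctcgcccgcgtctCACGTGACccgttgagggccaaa
Naglu: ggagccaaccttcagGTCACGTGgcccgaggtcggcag

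A match of letters describes the sequence and is not a measured binding site. Naglu, a lysosomal glucosaminidase, had 2.58, 2.39, 10.2 and 9.20 RPKM. Lgmn and Lamp1, the other 2 with a match, had log2 ratios of 0.85 and 0.62.

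Receptors of phagocytes were higher under SD. All 5 Fc receptor genes were called, with a median log2 ratio of 3.76, and all 6 genes of the phagocyte oxidase with a median of 3.02. All 9 genes of the Toll-like receptor list, which also holds Cd14 and Myd88, were called with a median of 2.64. Under vehicle these counts were 5, 6 and 8, with medians of 3.34, 2.46 and 2.24. These counts are partly set by the filter, since 1, 4 and 5 of the genes were under it in both WT libraries, and the other 4, 2 and 4 were called higher under SD as well. Fcer1g, the signalling chain shared by Fc receptors, had 3.89, 2.07, 52.0 and 29.2 RPKM, and Tlr2, which senses bacterial lipoproteins, had 1.72, 1.51, 12.5 and 14.6 RPKM. Tlr3, a sensor of double-stranded RNA that astrocytes also express, had the smallest ratio of its list (0.88). Of 12 chemokine genes 10 passed the filter and all 10 were higher in both pairs, with medians of 3.71 and 2.69. For 8 of the 10 the filter itself largely set this direction, as they were under 1 RPKM in both WT libraries, and the other 2 are Ccl6 (3.39) and Cxcl14 (0.91). Ccl3, a ligand for monocyte receptors, had 0.253, 0.237, 11.8 and 10.5 RPKM, and Cxcl10, an interferon-induced ligand, had 0.626, 0.330, 2.97 and 5.11 RPKM. Lymphocyte markers stayed under the filter, with a summed level over the 11 genes of 0.103, 0.503, 0.682 and 0.838 RPKM, and their part in these results was not tested.

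Complement genes were higher except for Cd55 and Cd59a, regulators on the surface of cells. Of the 12 tested genes 10 were called higher and 0 lower under SD, with a median of 3.51, and under vehicle 10 higher and 1 lower, with a median of 2.95. C3ar1 passed the filter through its G93A values alone, and 9 of the other 11 were called higher under SD. The C1q chains were close to each other, C1qa with 26.0, 20.1, 281 and 261 RPKM and C1qc with 17.4, 12.5, 130.2 and 156 RPKM. C3, the central component, on which the activation routes meet (chr17:57203967-57228136), had 38.5, 12.4, 175 and 277 RPKM. Its log2 ratio of 4.47 in the SD pair stood against 2.18 in the vehicle pair, and against 2.84 when G93A + SD was set beside WT vehicle, so that part of the difference between the pairs lay in the WT + SD library. C4b moved the other way in the WT libraries, at 12.5, 31.1, 102 and 151 RPKM, with ratios of 2.27 and 3.02, and 33.4% of its windows occur in C4a. Cd55, which shields cells from complement, had 4.19, 3.91, 2.60 and 2.96 RPKM, log2 ratio -0.39.

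Interferon-stimulated genes were called more often in the SD pair. Of 18 genes 12 passed the filter, and 10 of them were called higher under SD against 5 under vehicle, with medians of 1.13 and 0.53. No test of this difference was possible. Ifit3, an antiviral protein, had 8.10, 4.41, 11.3 and 13.5 RPKM, with ratios of 1.59 and 0.47, and Ifit1 of the same family had 2.28, 1.25, 3.29 and 3.65 RPKM, with ratios of 1.47 and 0.51. In both, the G93A libraries were near each other and WT + SD was below WT vehicle. With WT vehicle in place of WT + SD, 7 of the 12 genes were called. Irf9, a subunit of the factor that interferon activates, had 4.14, 3.81, 8.89 and 9 RPKM and was called in both pairs (1.22 and 1.08). Bst2, which tethers virus particles to the membrane, had the largest ratio, at 2.40, 1.70, 9.64 and 9.77 RPKM (2.45 and 1.96). Stat2, a signal transducer, was at -0.01. For Ifit3, 49.9% of windows occur in Ifit3b.

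The interferon-stimulated response element has a core of the letters GAAANNGAA, and it stood in 8 of 12 promoters (66.7%) found for the list of 18, genes under the filter included, on either strand. It stood in 8.19% of the 9077 tested genes with a promoter and in 8.56% of all promoters in the table. The stretches are shown because the letters recur within a few bases of each other, with every match in capitals and with overlapping matches run together. Ifit1 (chr19:34640765-34640828, plus strand) and Isg15 (chr4:156200861-156200911, minus strand) held 3 matches each, and Ifit3 (chr19:34583393-34583450, plus strand) and Bst2 (chr8:71537573-71537617, minus strand) held 2 each. The match nearest the start lay 75, 57, 93 and 115 bases before it.
Ifit1: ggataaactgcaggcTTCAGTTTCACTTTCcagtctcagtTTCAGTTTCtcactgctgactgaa
Isg15: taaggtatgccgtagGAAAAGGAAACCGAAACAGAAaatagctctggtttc
Ifit3: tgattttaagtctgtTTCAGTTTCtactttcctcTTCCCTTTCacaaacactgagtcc
Bst2: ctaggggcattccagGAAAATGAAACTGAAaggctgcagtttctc

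Isg15, a ubiquitin-like modifier, had 1.63, 1.66, 3.52 and 3.53 RPKM, with log2 ratios of 1.04 and 1.06 that did not differ between the pairs. Ifit2, Irf7, Irf9 and Oasl2 had no such letters in the window and were called higher under SD as well. Stat2 held 1 match and was not called.

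Genes of MHC class I presentation were higher under SD in 8 of 8 cases and under vehicle in 7 of 8, with medians of 2.30 and 1.25, and each of the 8 had the larger ratio in the SD pair. B2m, the light chain, had 80.0, 60.7, 236 and 375 RPKM (2.62). The heavy chain H2-K1 had 17, 8.16, 40.7 and 44.8 RPKM (2.44) and H2-D1 had 24.8, 8.65, 73.7 and 43.0 RPKM (2.30). For both heavy chains WT + SD was far below WT vehicle, and the ratio of G93A + SD to WT vehicle was 1.39 for H2-K1 and 0.79 for H2-D1. MHC class II went the other way, with 4 of 4 genes called in both pairs but each with the larger ratio under vehicle, and medians of 1.19 and 2.04. The 3 H2 genes were under 1 RPKM in both WT libraries and passed the filter through G93A, and 2 of the 4 were called under SD with 1 RPKM added. H2-Aa had 0.865, 0.629, 3.2 and 1.5 RPKM and Cd74, the invariant chain, had 1.53, 1.70, 11 and 10.9 RPKM.

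C3, C4b and the H2 genes lie on chromosome 17, which stood apart in the WT libraries. Of 537 tested genes on it 38 (7.08%) differed by at least 1.5-fold between WT + SD and WT vehicle, against 0.25% to 2.99% on the other chromosomes, among 11528 genes with a position. The mice descend from a cross with B6/SJLF1 animals, and the part of inherited haplotypes in these values was not tested.

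**Figure D2:**
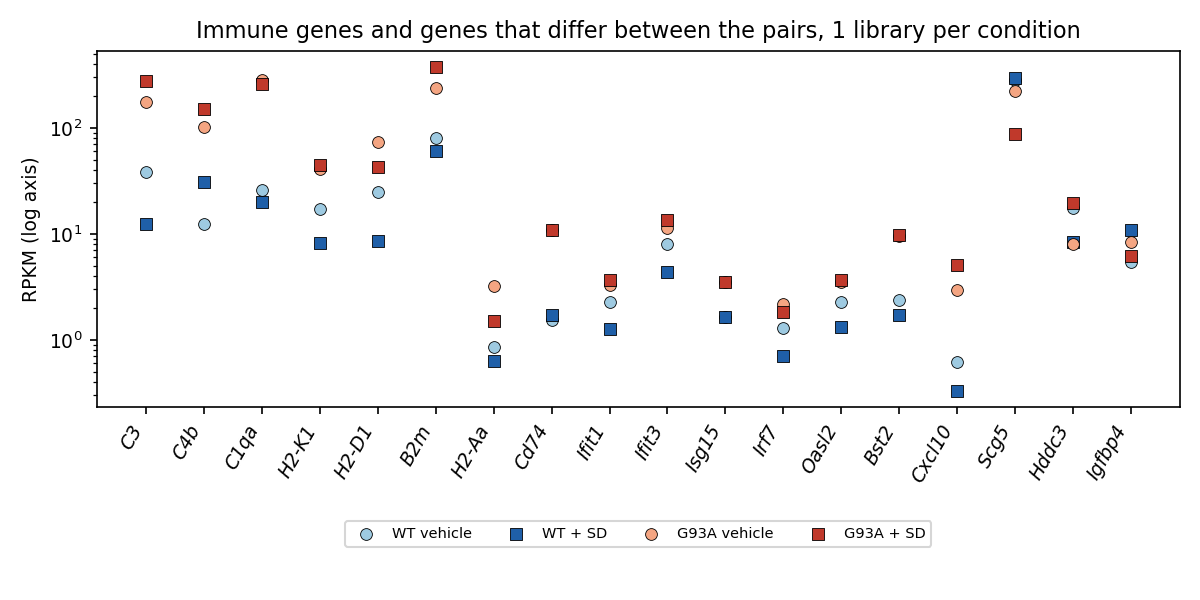
RPKM on a log axis in each of the 4 libraries for immune genes and, at the right, for 3 genes that differ between the pairs, with circles for vehicle and squares for SD, blue for WT and red for G93A. WT + SD lies below WT vehicle for C3, H2-K1, H2-D1, Ifit1 and Ifit3, and Scg5 has its lowest value in G93A + SD.

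Reactive astrocyte genes were called higher in 13 of 13 cases in both pairs, with medians of 3.88 under SD and 3.16 under vehicle, and 12 of the 13 had the larger ratio under SD. Gfap, the intermediate filament of astrocytes, had 441, 386, 2269 and 2707 RPKM (2.81), and Vim, a further filament protein, had 29.8, 27.8, 379 and 586 RPKM (4.39). Serpina3n, a secreted protease inhibitor, had 27.8, 24.5, 473 and 772 RPKM (4.97), and S100a6, a calcium-binding protein, had 22.2, 21.7, 199 and 318 RPKM (3.87). In each of these 4 genes both G93A libraries lay above both WT libraries and G93A + SD was the highest. Timp1 alone had the smaller ratio in the SD pair. It also was the only gene of the list to pass the filter through its G93A values, and the other 12 were all called higher under SD.

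Homeostatic astrocyte genes showed smaller differences, with 7 of 12 called higher and 0 lower under SD, 5 of 12 under vehicle, and medians of 0.75 and 0.42. The water channel Aqp4 had 159.5, 162, 319 and 396 RPKM (1.29), and the transcription factor Sox9 had 5.76, 6.05, 14.5 and 17.8 RPKM (1.54). The potassium channel Kcnj10, which clears potassium from the extracellular space, was at 236, 279.8, 224 and 271 RPKM, log2 ratio -0.04, and the glutamate transporter Slc1a2, the main route of glutamate uptake, at 216, 211, 216 and 233 RPKM (0.14). Neither was called in either pair.

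**Figure D3:**
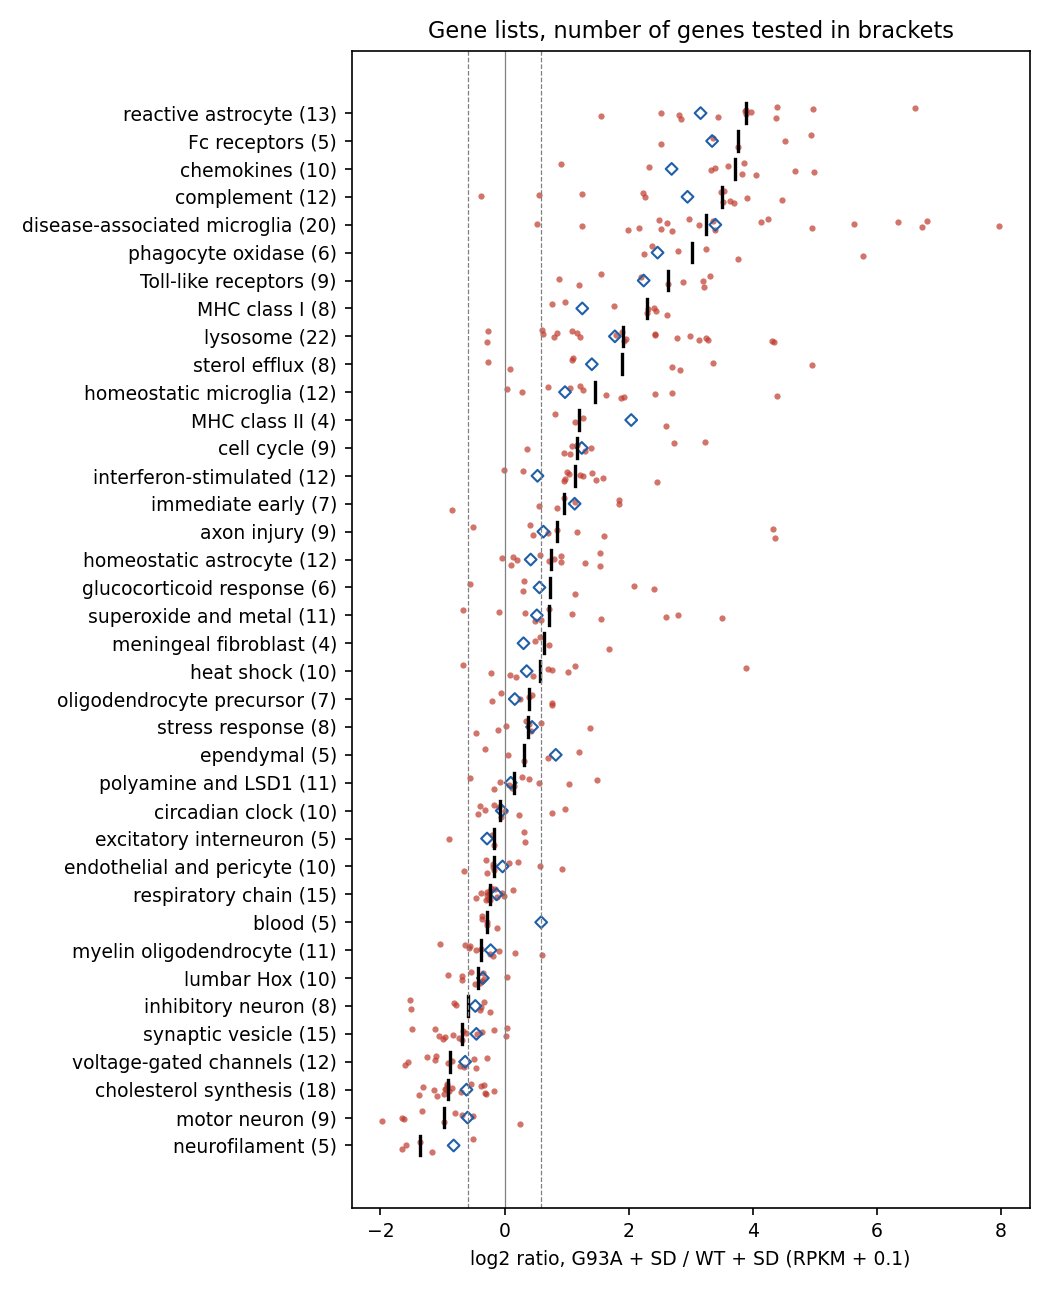
Log2 ratio in the SD pair of every tested gene of the lists with at least 4 tested genes (red points), ordered by the list median (black bar), with the median of the same list in the vehicle pair as an open diamond and dashed lines at 1.5-fold. Reactive astrocyte, Fc receptor and chemokine genes stand at the top with SD medians of 3.88, 3.76 and 3.71, and neurofilament and motor neuron genes at the bottom with -1.36 and -0.97. Of these top lists 1 of 13, 1 of 5 and 8 of 10 genes were under 1 RPKM in both WT libraries. Those genes passed the filter through their G93A values, so the place of the chemokine list is partly set by the filter.

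Motor neuron genes were lower in G93A, and more so in the SD pair. Of 12 markers 9 passed the filter, and 7 of these were called lower and 0 higher under SD, against 5 lower under vehicle. The medians were -0.97 and -0.60, and all 9 genes had the lower ratio in the SD pair. Chodl, a membrane lectin of fast motor neurons (chr16:78930841-78951736), had 19.0, 15.2, 6.69 and 3.80 RPKM, 3.92-fold lower under SD and 2.82-fold lower under vehicle. Chat, which makes acetylcholine, had 9.83, 8.57, 6.55 and 4.33 RPKM (-0.97 and -0.58), and Slc5a7, the choline transporter, had 28.2, 28.2, 21.9 and 16.1 RPKM (-0.80 and -0.36). In all 3 the libraries had the same order, with G93A + SD lowest and G93A vehicle next. Mmp9, a protease of fast motor neurons, had 2.61, 2.26, 1.30 and 0.667 RPKM. Calca, the CGRP precursor, was the only one of the 9 above 0, at 17.5, 20.6, 25.4 and 24.4 RPKM (0.25).

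Neurofilament genes, which encode the intermediate filaments of large axons, had the lowest median of the lists with at least 4 tested genes, -1.36 under SD and -0.82 under vehicle, with 4 of 5 called lower against 3 of 5. Nefl (chr14:68083863-68089095) had 812, 763, 413 and 254 RPKM (-1.59), Nefm had 612, 603, 347 and 234 RPKM (-1.36), and Nefh had 327, 313, 159.9 and 99.2 RPKM (-1.65). The WT libraries differed little for these subunits, and G93A + SD was below G93A vehicle in each. Prph, the filament of motor and sensory neurons, was at 23.8, 21.0, 20.3 and 14.8 RPKM (-0.50) and not called. For Nefl 31.7% of windows occur in a transcript annotated to Nefm.

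Genes on the inhibitory neuron list, which also holds genes of the receiving side of glycine synapses, were lower in part. Of 8 genes 4 were called lower under SD and 2 under vehicle, with medians of -0.58 and -0.47. Slc6a5, the glycine transporter of inhibitory terminals, had 45.9, 50.4, 21.5 and 17.5 RPKM (-1.52), and Glra1, a glycine receptor subunit, had 50.8, 52.9, 17.4 and 18.6 RPKM (-1.50). Gad1, which makes GABA, had 50.8, 51.0, 36.2 and 43.2 RPKM (-0.24) and was not called, nor was Gphn, which anchors glycine receptors, at 23.3, 23.8, 19.9 and 18.2 RPKM (-0.39). Of 5 tested excitatory interneuron genes only Slc17a6, the vesicular glutamate transporter, was called in either pair, at 58.7, 60.1, 36.5 and 32.2 RPKM (-0.90), and the list medians were -0.17 and -0.28. Neuropeptide genes of dorsal interneurons were not called, with Sst at -0.20, Grp at -0.17 and Tac1 at 0.31.

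Synaptic vesicle genes were called lower in 10 of 15 cases under SD and 6 of 15 under vehicle, with medians of -0.68 and -0.46 and 0 called higher. Syt2, the calcium sensor of fast synapses, had 88.5, 85.4, 41.3 and 30.2 RPKM (-1.50), and Vamp1, a vesicle fusion protein abundant in motor terminals, had 420.1, 432, 276 and 199 RPKM (-1.12). Their widely expressed relatives differed less, with Syt1 at -0.17 and Vamp2 at 0.03, the latter at 126, 121, 112 and 123 RPKM. Snap25, which joins them in the fusion complex, had 1268, 1292, 782 and 661 RPKM (-0.97).

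Voltage-gated channel genes of fast-spiking neurons followed, with 9 of 12 called lower under SD and 6 of 12 under vehicle, medians of -0.88 and -0.64 and none higher in either pair, and 11 of the 12 had the lower ratio under SD. Kcna2, the axonal Kv1.2 channel, had 30.9, 33.0, 13.2 and 10.7 RPKM (-1.61), and Scn4b, a sodium channel subunit, had 113, 104, 64.5 and 43.5 RPKM (-1.25). The leak channel gene Kcnk9, outside the list, was among the 12 largest falls with 18.9, 19.0, 7.15 and 6.36 RPKM (-1.56). Scn2a1, the sodium channel of thin unmyelinated axons, had the smallest difference of the list (-0.28). Lumbar Hox genes, which mark segmental identity, were lower in 3 of 10 cases, with Hoxd10 at 7.54, 8.11, 5.21 and 4.97 RPKM (-0.69) and a list median of -0.44 against -0.35 under vehicle.

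**Figure D4:**
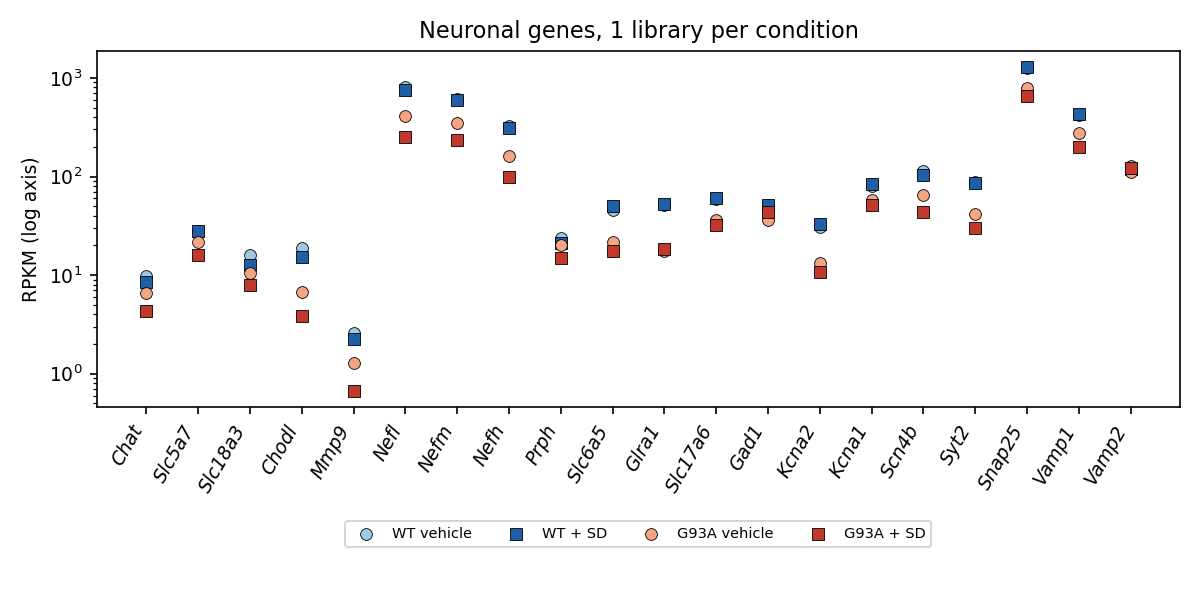
RPKM on a log axis in each of the 4 libraries for 20 neuronal genes, with circles for vehicle and squares for SD, blue for WT and red for G93A. The WT libraries lie close together, G93A + SD is the lowest value for the motor neuron, neurofilament, channel and most synaptic genes shown, and Gad1 and Vamp2 stay close together.

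Other large falls among genes averaging 5 RPKM or more were Fgf11, an intracellular fibroblast growth factor relative that binds sodium channels (11.2, 12.7, 6.35 and 3.60 RPKM, log2 ratio -1.79), Apln, the peptide apelin (20.5, 23.7, 11.1 and 7.14 RPKM, -1.72), and Lingo4, a leucine-rich repeat membrane protein (8.97, 9.11, 3.66 and 2.79 RPKM, -1.67). In all 3 the G93A libraries lay below both WT libraries. Stmn1, the microtubule regulator stathmin, had 42.0, 43.9, 17.8 and 15.1 RPKM (-1.53), with 35.7% of its windows in other transcripts. Hmgn2, a nucleosome-binding protein, had the largest fall of these, at 9.77, 9.11, 1.34 and 1.27 RPKM (-2.75 and -2.78), but 65.8% of its windows occur in another annotated transcript.

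Cholesterol synthesis genes were lower and sterol efflux genes higher. Of 18 tested synthesis genes 12 were called lower and 0 higher under SD, against 9 lower under vehicle, with medians of -0.91 and -0.61, and 17 of the 18 had the lower ratio in the SD pair. Mvd, of the mevalonate steps, had 14.2, 12, 7.11 and 4.76 RPKM (-1.32), Cyp51, which removes a methyl group from lanosterol, had 46.4, 45.8, 29.5 and 21.4 RPKM (-1.10), and Sqle, the squalene epoxidase, had 48.6, 47.9, 34.1 and 25.1 RPKM (-0.93). In each gene the order was G93A + SD lowest, then G93A vehicle. Of 8 efflux and storage genes 6 were called higher in both pairs, with medians of 1.90 and 1.41. Abca1, the exporter that loads cholesterol onto lipoproteins, had 4.90, 4.39, 17.9 and 31.9 RPKM (2.83 and 1.85), and Ch25h, which makes 25-hydroxycholesterol, had 0.158, 0.241, 10.5 and 10.5 RPKM (4.96). Ch25h passed the filter through G93A alone, and 5 of the other 7 were called higher under SD.

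Most myelin genes were not called in either pair. Of 11 genes 2 were called lower and 1 higher under SD, 0 lower and 1 higher under vehicle, and the medians were -0.38 and -0.23. Mbp, which compacts the myelin membrane, had 4669, 4662, 3714 and 3575 RPKM (-0.38), and Ugt8a, which makes the myelin lipid galactosylceramide, had 125, 139.8, 94.6 and 68.0 RPKM (-1.04). Cldn11, a tight junction protein of myelin, was the higher gene, at 195, 217, 326 and 327 RPKM (0.59), and was under the threshold after scaling by median ratios (0.53), which left 0 higher and 4 lower. Of 7 oligodendrocyte precursor genes 2 were called higher, Gpr17 at 10.4, 11.1, 16.8 and 18.9 RPKM (0.77) and Cspg4 (0.77), and the list median was 0.39 against 0.16. Only 1 was called with 1 RPKM added or with WT vehicle as the WT library. Over all genes 15.8% were called higher and 7.85% lower under SD, and the precursor count does not set that list apart.

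Genes of axon injury were mostly higher, while those of the stress responses were mostly not called. Of 9 injury genes 6 were called higher under SD and 5 under vehicle (medians 0.84 and 0.62), the largest ratios being those of the transcription factor Atf3 with 0.606, 0.760, 14.2 and 17.5 RPKM (4.36) and of Sprr1a with 0.602, 0.496, 9.01 and 11.9 RPKM (4.33). Both were under 1 RPKM in the WT libraries and passed the filter through G93A, and 4 of the other 7 were called under SD. Of 8 genes of the unfolded protein and amino acid stress responses only Ddit3, the factor CHOP, was called in either pair, at 13, 13.1, 27.0 and 34.2 RPKM (1.38). Of 10 heat shock genes 5 were called higher and 1 lower, with a median of 0.57 against 0.36, and with WT vehicle as the WT library 2 were higher and 0 lower. Hspb1, a small chaperone of astrocytes and motor neurons, had 7.32, 6.08, 56.8 and 91.1 RPKM (3.88), with 59.9% of windows shared. Hspa8, a constitutive chaperone, was called higher (0.69) with WT + SD the lowest library, at 107, 50.1, 85.2 and 81.0 RPKM, and its ratio against WT vehicle was -0.40. Of its windows 74.2% occur in another annotated transcript.

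Metal and antioxidant genes were higher in 6 of 11 cases and lower in 1, with medians of 0.71 and 0.52. The metallothionein gene Mt1 had 227, 191, 1049.7 and 1155 RPKM (2.59), and Mt2 had 149, 140.3, 900.3 and 978 RPKM (2.80), with 43.8% of windows shared. Hmox1, which degrades haem, had 3.08, 3.15, 32.5 and 36.9 RPKM (3.51). Sod2, the mitochondrial superoxide dismutase, was called lower (-0.67), at 37.9, 51.6, 33.6 and 32.4 RPKM, with WT + SD the highest library and a ratio of -0.22 against WT vehicle. The 15 nuclear genes of the respiratory chain on the list, cytochrome c included, were not called in either pair, with medians of -0.24 and -0.13.

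Cell cycle genes and part of the immediate early genes were higher in G93A. Of 9 tested cell cycle genes 8 were called under SD and 9 under vehicle (medians 1.16 and 1.24). Of the 9, 4 were under the filter in both WT libraries and entered through G93A, and 4 of the other 5 were called under SD. Top2a, a topoisomerase of dividing cells, had 0.339, 0.269, 3 and 3.36 RPKM (3.23). Of 7 immediate early genes 5 were higher and 1 lower under SD, and 6 higher under vehicle (0.95 and 1.13). Fos had 5.78, 8.37, 23.4 and 30.3 RPKM (1.85), while Arc, which neurons induce with synaptic activity, had 6.36, 7.27, 6.15 and 3.99 RPKM (-0.85 and -0.05). Of 6 glucocorticoid-responsive genes 3 were higher under SD and 2 under vehicle (0.73 and 0.56). Plin4, a lipid droplet coat protein, had 1.15, 1.35, 4.95 and 7.62 RPKM (2.41), and Sgk1, a kinase, had 36.5, 18.4, 75.7 and 78.8 RPKM (2.09, and 1.11 against WT vehicle). Of 10 circadian clock genes 2 were higher, 1 of them with 1 RPKM added, with a median of -0.07 in the SD pair and -0.05 in the vehicle pair. This is near the 15.8% of all genes called higher under SD and does not set the list apart.

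Polyamine genes bear on the agent itself. Of 11 genes of polyamine metabolism and the LSD1 complex 2 were called higher in both pairs and 0 lower, with medians of 0.15 and 0.10, a share of the list near the 15.8% and 11.7% of all genes. They were Sat1, which acetylates spermidine for export, at 21.6, 21.3, 47.3 and 60.1 RPKM (1.5), and Odc1, which makes putrescine, at 6.70, 6.82, 13 and 14.2 RPKM (1.04). For both, the WT libraries were alike with and without SD. Sms, the spermine synthase, had 32.9, 33.3, 23.1 and 22.6 RPKM (-0.56). Kdm1a, the gene of LSD1, had 15.3, 15.4, 17.8 and 17.1 RPKM, log2 ratios of 0.15 and 0.22, and was not called.

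Markers of vessels and blood were mostly not called under SD, and part of the meningeal and ependymal markers were higher. Of 10 endothelial and pericyte genes 1 was called higher and 1 lower (median -0.18), of 4 meningeal fibroblast genes 2 were higher (0.64), and of 5 ependymal genes 2 were higher (0.32), against 4 under vehicle (0.82). Col1a1, a collagen chain of fibroblasts, had 0.656, 0.516, 1.62 and 1.87 RPKM (1.68), and Rarres2, which encodes chemerin, had 10.4, 10.8, 22.8 and 24.9 RPKM (1.20). Col1a1 passed the filter through G93A alone, and 1 of the other 3 meningeal genes was called. With 1 RPKM added, 1 gene of each of these 2 lists was called. Over all genes 15.8% were called higher and 7.85% lower under SD. With so few genes, the vessel, meningeal and ependymal counts under SD do not set these lists apart. The 2 tested Schwann cell genes were not called (median 0.42). Of 5 blood genes 0 were called under SD and 4 were higher under vehicle (medians -0.29 and 0.59), while 5 were higher in G93A + SD against WT vehicle, with summed levels of 34.4, 69.3, 51.7 and 55.7 RPKM. The haemoglobin genes form near-identical pairs (66.9% of the windows of Hba-a1 occur in Hba-a2), so these counts and sums take much the same reads 2 times. WT vehicle thus held the least haemoglobin mRNA and WT + SD the most, and the part of residual blood in other results was not tested.

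The pairs disagreed by at least 1 on the log2 scale for 132 genes, 91 with the larger ratio under SD and 41 with the smaller. Several of the 12 leading genes rest on 1 library. Ftl2, a ferritin light chain gene, had 12.1, 0.186, 53.8 and 54.7 RPKM, so that its SD ratio of 7.58 came from a value near 0 in WT + SD and was 2.17 against WT vehicle. LOC624853 had 173, 6.55, 108 and 103 RPKM (3.96 and -0.68), also low in WT + SD alone. Serpina3h had 0.635, 0.595, 22.7 and 0.707 RPKM and was high in G93A vehicle alone (0.22 and 4.96).

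The study followed Rpl26 and 2810001G20Rik. Rpl26, a protein of the large ribosomal subunit, had 7.44, 11.4, 1.22 and 13 RPKM, log2 ratios of 0.19 under SD and -2.52 under vehicle, and G93A vehicle was the only low library. Gm15772, with 89.9% of its windows in Rpl26, had 7.77, 11.9, 1.25 and 13.6 RPKM and is not independent of it. Of the windows of Rpl26 itself 70% occur in transcripts of other genes, Gm15772 the leading one, so its values may not be those of Rpl26 alone. 2810001G20Rik had 5.56, 5.32, 2.69 and 4.65 RPKM (-0.19 and -1.02).

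Scg5, the neuroendocrine chaperone 7B2 of prohormone convertase (chr2:113776313-113829091), was low in G93A + SD alone, at 281, 292, 222 and 86.9 RPKM, with ratios of -1.75 and -0.34. A730008H23Rik had 6.06, 15.7, 20.6 and 11.8 RPKM (-0.41 and 1.75), and Hjurp, a centromere histone chaperone, had 3.64, 8.58, 11.5 and 6.82 RPKM (-0.33 and 1.63). In both of these WT vehicle was lowest and G93A vehicle highest, and whether the 2 entries are independent of each other was not tested. Arl16, a small GTPase, had 6.91, 11.3, 9.54 and 5.73 RPKM (-0.97 and 0.46), with WT + SD highest and G93A + SD lowest.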

How the data were processed

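Lumbar spinal cord RNA was measured in 4 libraries, 1 for each genotype with and without SD, assigned from the sample titles. The authors deposited 1 table of RPKM values, a unit inferred from the values, since no source names it and their sums weighted by transcript length hardly differ between libraries. The methods describe polyA RNA, 53 bp reads, STAR with GRCm38 and HTSeq on Ensembl genes, whereas the rows are RefSeq transcripts. How the table was made is not given in the sources used here. The 3 ratio columns of the authors' comparisons were not used. A count model was not used.

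Rows of a gene name were averaged, genes averaging 1 RPKM or more kept, and log2 ratios computed after adding 0.1 RPKM. Fold changes are on this scale, which understates those of low genes. A call is a ratio of at least 1.5-fold. With 1 library per condition no test was run. The comparison and the 41 gene lists were chosen with earlier results of these data known, and some genes are in more than 1 list. Genes named are the 12 largest rises and falls and the 6 largest differences between pairs in each direction (mean of at least 5 RPKM), up to 5 members per list with the highest mean and its extremes, and Kdm1a, Sod1, Rpl26 and 2810001G20Rik. Further list members, such as Chat, Trem2 and Ifit1, were named after their values had been seen.

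Depth was estimated from the smallest steps of the values, which gave 36800000 and 38000000 read pairs in the vehicle libraries of WT and G93A, and 38300000 and 38600000 in their SD libraries, with transcript lengths for 97.0% of the rows. No interval was derived from these estimates. Windows of 53 bases of named genes were compared with GENCODE M21 transcripts of other genes, and 49 of 236 genes shared over 10% of theirs. Alternatives were pseudocounts of 0.5 and 1, no filter, a mean of at least 5, 2-fold, scaling by median ratios, other handling of rows, and WT vehicle as the WT library. Scripts ran on pandas 2.3.3, numpy 2.4.6 and matplotlib 3.10.9 under Python 3.11.15, and the calls were tested on simulated data. Other assays of the study were not analysed here, and some genes are not reported here.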

Additional observations from a re-analysis of the deposited data

Results flagged for a closer look

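Among genes averaging 5 RPKM or more, 4 were called in opposite directions in the 2 pairs. The difference between the pairs was not tested, since each condition has 1 library. Values follow the order WT vehicle, WT + SD, G93A vehicle, G93A + SD. Igfbp4, which binds insulin-like growth factors, had 5.42, 10.8, 8.30 and 6.23 RPKM, lower under SD (-0.79) and higher under vehicle (0.60), a difference of -1.39. Capza1, an actin capping protein, had 7.90, 4.71, 4.25 and 8.02 RPKM (0.76 and -0.88, difference 1.63), with 76.6% of its windows in another transcript. Hddc3, a hydrolase, had 17.4, 8.46, 7.99 and 19.5 RPKM (1.19 and -1.11, difference 2.31), with 69.8% shared. LOC624853, at 173, 6.55, 108 and 103 RPKM, had a difference of 4.64, with its low value in WT + SD. Over all 12987 genes, 8 had such opposite calls.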

How the results depend on the processing

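Under pseudocounts of 0.5 and 1, scaling by median ratios and other handling of rows, the 4 counts (higher, lower, and each in both pairs) stayed within 1.5 times, except that genes lower in both pairs fell to 239 with a pseudocount of 1. Without the filter 3189 genes were higher. With a mean of at least 5 RPKM, 1086 were higher, 805 higher in both pairs and 267 lower in both. At 2-fold, 1124 were higher, 197 lower, 804 higher in both and 36 lower in both. Scaling by median ratios moved the median by -0.065 and gave 1866 higher and 1299 lower. With WT vehicle as the WT library, 2120 were higher and 1096 lower, 26 of the 239 named genes crossed the threshold, and 3 reversed: Hspa8 (-0.40), Igfbp4 (0.20) and LOC624853 (-0.74). The labels give no replicate numbers that pair samples, and a fit of genotype and treatment over the 4 libraries was not run. Genes near 1 RPKM and genes that share windows are the least certain, and 77 of 12805 genes had fewer than 20 estimated read pairs.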
